A study of Mus musculus with 4 samples.

Results

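Single-exon isoforms are transcript models made of 1 uninterrupted stretch of genome. They were chosen here as the isoforms of the deposited isoform table that have exactly 1 exon row in the deposited transcript models, whatever category their name carries. The rule found 1360 such isoforms among 68012, which is 2.00% of the table, and they belonged to 665 of its 10482 host genes. The rule used no expression value.

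The study sequenced full-length cDNA of single mouse oocytes and blastomeres on the PacBio platform by HIT-scISOseq, a method that joins several cDNAs end to end before long-read sequencing and counts molecules by unique molecular identifiers (UMIs). Oocytes came from superovulated C57BL/6J females and embryos from crosses with DBA/2NCrl males in the study's methods, while the strain label reads DBA/2J x C57BL/6J. All animals were wild type and received the same 2 hormones, PMSG and hCG. After hCG, MII oocytes of unmated females were taken at 20 hours, zygotes at 22 to 24 hours, early 2-cell embryos (E2C) at 30 to 32 hours, late 2-cell embryos (L2C) at 46 to 48 hours, 4-cell embryos at 54 to 56 hours, 8-cell embryos at 68 to 70 hours, 16-cell and 32-cell embryos at 78 to 80 hours and blastocysts at 88 to 90 hours. The mESCs are a cultured mouse embryonic stem cell line. The values cover 161 cells from 3 sequencing runs, and 121 of them name their oocyte, zygote or embryo, which gave 43 replicates. They are 10 oocytes and 9 zygotes, followed by embryos at E2C (5), L2C (6), 4-cell (5), 8-cell (4) and 16-cell (4). For the 22 cells from 32-cell embryos, 13 from blastocysts and 5 mESCs no embryo is named, and medians and ranges over cells stand in place of a test.

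A gene without introns gives a single-exon messenger without any splicing. Replication-dependent histone genes, many transcription factor and immediate early genes, and retrogenes, which are copies of spliced messengers put back into the genome, are built this way. A gene with introns can also give a single-exon molecule, when transcription starts or stops within 1 long exon or when an intron is kept between them, and reverse transcription that stops early inside a long last exon leaves the same shape. Mouse mitochondrial DNA holds no introns, and its long transcripts are cut at transfer RNAs into messengers that receive short poly(A) tails. In the mouse, the oocyte carries a store of maternal messengers that is cleared around the 2-cell stage, when the embryo's own genome is switched on.

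The 3′ ends of some nuclear members with changes between stages are shown first. The poly(A) signal differs most between the mitochondrial class and the nuclear classes described next, and nuclear members occur with and without it. Each line gives the last 30 bases of an isoform, 5′ to 3′, taken from GENCODE M21 transcripts (GRCm38, mm10), with the AATAAA or ATTAAA nearest the end in capitals. The isoforms lie at chrX:6081219-6081248 on the minus strand (AU022751, PB.78789.4) and chr3:137928736-137928765 on the plus strand (Lamtor3, PB.49630.120).

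AU022751: tAATAAAgtaagttttattttaaaaattta
Lamtor3: ataAATAAAatagtatttttaaaggtaccg

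The next ends come from intronless genes. Gm10184 (PB.34962.2, chr17:89908475-89908504, minus strand) was named by its rise from E2C to L2C. The retrocopy Rpl9-ps6 (PB.38878.1, chr19:32465884-32465913, minus strand) was named by its rise from 4-cell to 8-cell.

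Gm10184: tgtaaataaagATTAAAgttccattcttta
Rpl9-ps6: ttttgggagAATAAAagacttatatattga

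Members without either signal are shown for contrast: a histone variant gene whose isoform stopped far upstream of the annotated end (H2afj, PB.64548.3, chr6:136808821-136808850, plus strand), a replication-dependent histone (Hist2h2aa2, PB.48428.2, chr3:96239750-96239779, minus strand) and a mitochondrial isoform (mt-Co1, PB.78709.308, chrM:6625-6654, plus strand).

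H2afj: ggaccgagggggtgttgggtggggacgagt
Hist2h2aa2: actgaatcagataaagagttgtgtcacggt
mt-Co1: tttcaggaataccacgacgctactcagact

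The members fell into 3 main classes by their host gene in the annotation. Mitochondrial genes held 162 isoforms of 13 genes. Intronless nuclear hosts, whose annotated transcripts all have 1 exon, held 557 isoforms of 292 genes. Multi-exon nuclear hosts, which have at least 1 spliced annotated transcript, held 626 isoforms of 348 genes. The remaining 15 isoforms belonged to 12 hosts that the annotation used here does not name, and they stayed unclassified. Every member carried the name FSM, a full match to an annotated transcript, and none of the 32615 incomplete-match (ISM), 5839 NIC or 9958 NNC isoforms had 1 exon. A 1-exon model has no splice junction to compare, so for these isoforms the label FSM says that an annotated 1-exon transcript was overlapped and not that its ends were reached.

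The isoforms of multi-exon hosts were mostly matched to transcripts of the type retained_intron, 371 of 626, and 195 were matched to protein-coding 1-exon transcripts. They started a median of 777 bases after the start of the matched transcript and covered a median of 40.4% of it. The isoforms of intronless hosts started a median of 69 bases after it and covered 60.9%. Of the 348 multi-exon hosts, 262 also had spliced isoforms in the table and 86 did not. Among intronless hosts, 475 of 557 isoforms came from protein-coding genes and 47 from lincRNA genes.

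The members were short. Their median length was 1109.5 bases, from 115 to 4647, against 1249.5 bases for isoforms with 2 or more exons and 861 bases for isoforms with exactly 2. By class the medians were 1278 bases for mitochondrial, 1136 for intronless and 1074 for multi-exon hosts.

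**Figure D1:**
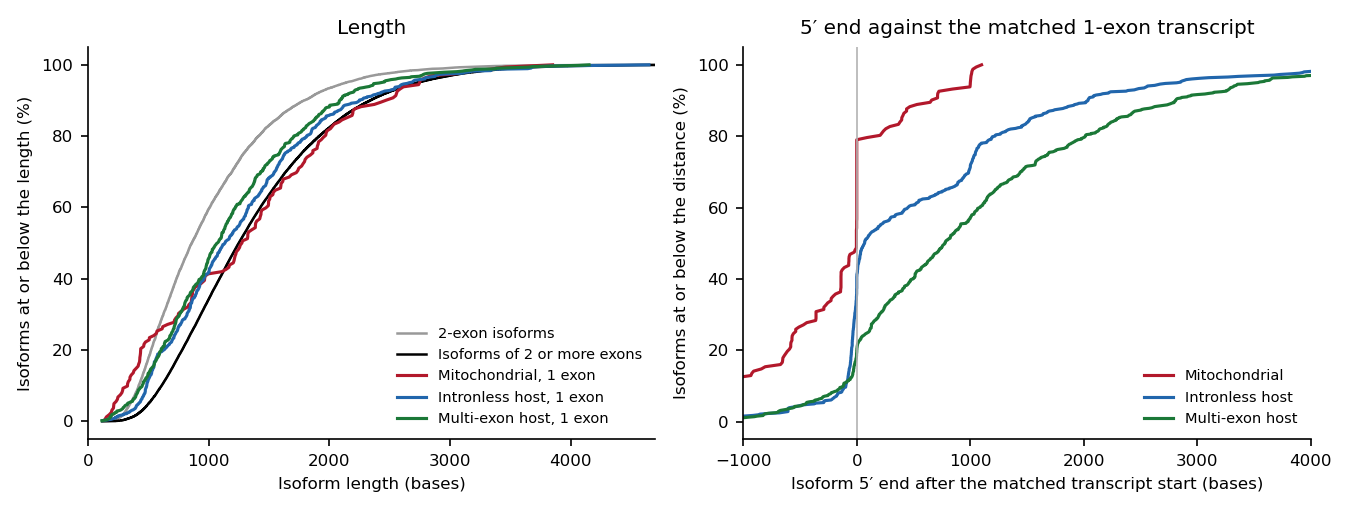
Left, cumulative percent of isoforms against isoform length in bases, for the 3 classes of single-exon isoforms and for 2-exon and all spliced isoforms. Right, cumulative percent against the distance in bases from the start of the matched annotated 1-exon transcript to the isoform's 5′ end. Multi-exon hosts lie to the right of intronless hosts in the right panel, with medians of 777 and 69 bases.

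The 3′ ends set the mitochondrial class apart from the nuclear classes. The last 30 bases could be read for 918 of the 1360 members, those whose end lies inside an annotated transcript. AATAAA or ATTAAA on the isoform's own strand, counted once where both occurred, was present in 64.5% of multi-exon host isoforms (305 of 473), 50% of intronless host isoforms (184 of 368) and 2.60% of mitochondrial isoforms (2 of 77). The share in isoforms with 2 or more exons was 61.5% (31429 of 51102), and over all annotated transcript ends it was 29.6%. The isoforms of multi-exon hosts thus carried the signal about as often as spliced isoforms, and those matched to retained-intron transcripts did so in 60.1% of cases. A run of A in the genome can prime reverse transcription inside a transcript, and at least 12 A in the next 20 bases were found in 5.30% of multi-exon host isoforms (16 of 302), 3.96% of intronless host isoforms (9 of 227) and 3.25% of isoforms with 2 or more exons. These shares are descriptions, since isoforms of 1 gene often share an end. The study had already filtered out artifact isoforms, and its methods do not say whether A-rich ends were a criterion.

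**Figure D2:**
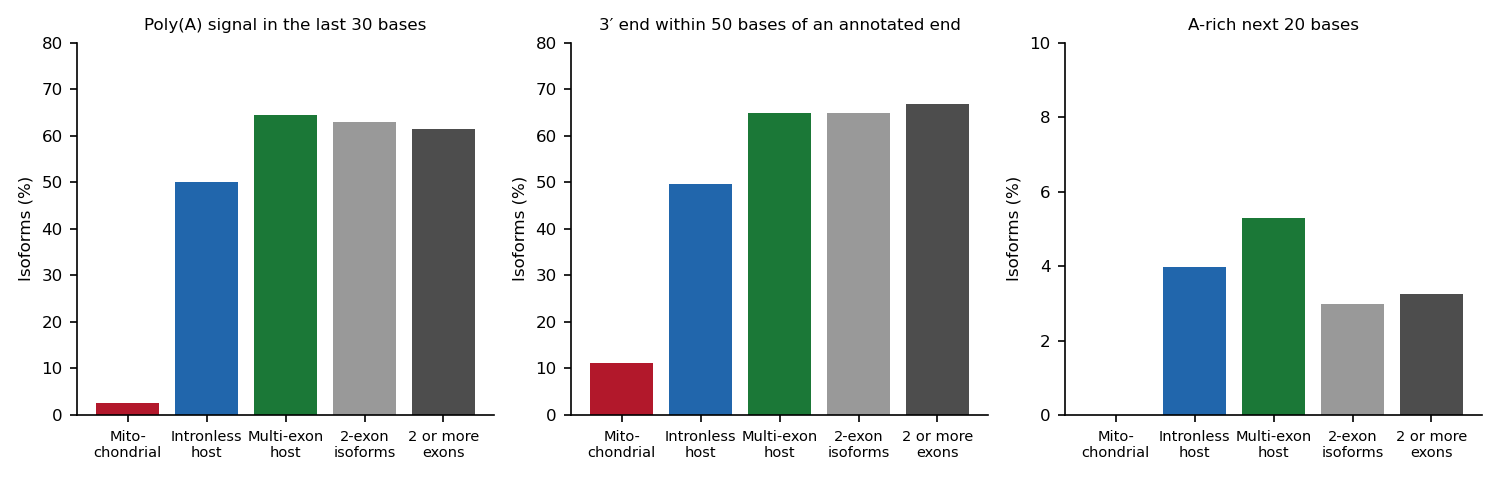
Percent of isoforms in each class with AATAAA or ATTAAA in the last 30 bases (left), with a 3′ end within 50 bases of any annotated end of the host gene (middle) and with at least 12 A in the next 20 bases (right). Bars are shares of isoforms and carry no replicate error; mitochondrial isoforms are lowest in all 3 panels, and multi-exon hosts lie near spliced isoforms in the first 2.

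Depth differed widely between stages, so shares were computed after every cell was thinned to 3000 isoform UMIs. The medians before thinning ran from 18753 UMIs per cell in mESCs and 23211 in 4-cell blastomeres to 161196 in zygotes, and the shallowest cell, a 4-cell blastomere, had 3385. Gdf9 and H1foo, egg messengers, had medians of 662 and 1597 copies per 100,000 UMIs in oocytes and lower medians from E2C on. They were not absent later. H1foo had medians of 135 at E2C, 3.52 at 32-cell, 134 in blastocysts and 43.0 in mESCs. Gdf9 had 46.8, 0, 24.2 and 30.1 at the same stages. Why both were found in mESCs was not tested. The egg genes Bmp15 and Zp3 did not follow them: Bmp15 went from 42.5 in oocytes to 77.2 in zygotes, 176 at E2C and 2.96 at L2C, and Zp3 from 8.27 in oocytes to 15.9 in zygotes and 21.7 at L2C. The 2-cell genes Zscan4c, Zscan4d, Zfp352 and Usp17lc stayed at or below a median of 2.91 copies in both 2-cell stages, and the pluripotency genes Nanog, Sox2, Pou5f1 and Zfp42 had medians of 7.01, 8.61, 64.5 and 112 in mESCs. In blastocysts the trophectoderm genes Krt8 and Krt18 had medians of 23.1 and 5.34, while Cdx2 and Gata3 were at 0. Has2, Ptgs2 and Tnfaip6 of cumulus cells had medians of 0 throughout. Samples of the same stage named by different embryo numbers were taken as separate embryos, and the column names do not say whether a number was used again in another run.

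Single-exon isoforms took 7.74% ± 1.2 (SD, n = 10) of isoform UMIs in oocytes, with a lowest value of 5.75%, a median of 7.81% and a highest of 9.25%. In zygotes the share was 9.11% ± 2.53 (n = 9; 5.27%, 8.87% and 13.9%). It was 11.9% ± 5.34 (n = 5) at E2C, 18.6% ± 5.37 (n = 6) at L2C, 11.9% ± 5.71 (n = 5) at 4-cell, 7.66% ± 4.64 (n = 4) at 8-cell and 5.70% ± 0.561 (n = 4) at 16-cell. The mean was thus highest at L2C, where all 6 embryos lay between 14.2% and 28.9%, but 2 of the 5 E2C and 2 of the 5 4-cell embryos reached into that range. No adjacent pair of stages passed the exact two-sided permutation test with Benjamini-Hochberg adjustment over 24 tests; the mean difference from E2C to L2C was 6.72 percentage points (exact p = 0.0801, adjusted p = 0.247). Within sequencing runs, known for oocytes and zygotes from the study's list of cells, the zygotes differed from the oocytes by 2.18 points in run 1, 1.28 in run 2 and -0.0444 in run 3, against 1.38 over all. The medians over cells were 6.86% at 32-cell (4.06% to 18.4%), 4.25% in blastocysts (3.13% to 9.95%) and 3.14% in mESCs (2.72% to 3.58%).

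**Figure D3:**
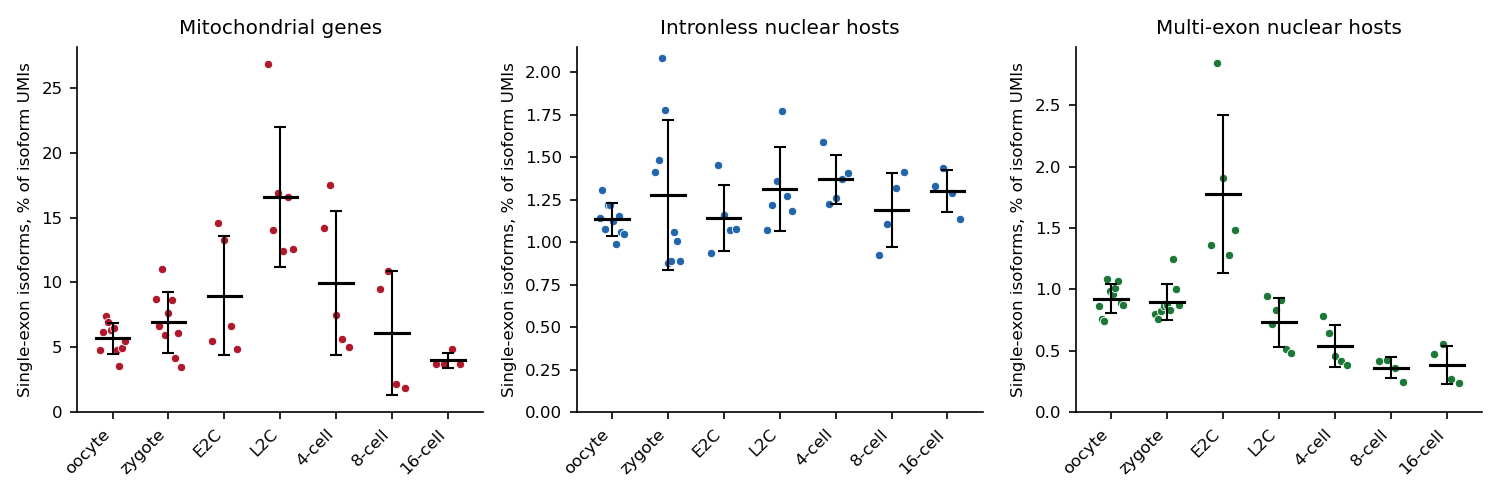
Percent of isoform UMIs in single-exon isoforms of mitochondrial genes, intronless nuclear hosts and multi-exon nuclear hosts, at 3000 UMIs per cell. Each point is 1 oocyte, zygote or embryo, long bars are means and whiskers SD; the vertical axes differ between panels. The multi-exon host share of all 5 E2C embryos lies above every zygote and every L2C embryo.

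Most of these UMIs were mitochondrial. The mitochondrial single-exon share was 5.68% ± 1.2 in oocytes, 6.94% ± 2.35 in zygotes, 8.98% ± 4.59 at E2C, 16.6% ± 5.40 at L2C, 9.96% ± 5.56 at 4-cell, 6.10% ± 4.76 at 8-cell and 4.00% ± 0.587 at 16-cell. Within 3 stages the embryos split into separate groups on this share. E2C embryos 2 and 3 had 14.6% and 13.3% and the other E2C embryos 4.87% to 6.66%. Likewise 4-cell embryos 1 and 2 had 14.2% and 17.5% against 5.02% to 7.49%, and 8-cell embryos 1 and 2 had 9.51% and 10.9% against 2.20% and 1.83%. The sequencing run of these embryos was not identified here, so run and embryo cannot be told apart. L2C embryo 1, with 1 cell, had 26.9%, above the 12.4% to 16.9% of the other L2C embryos.

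Mitochondrial members took their names from 13 protein-coding genes, and the genes with the most single-exon isoforms were mt-Nd1 with 25, mt-Nd5 with 21, mt-Nd6 with 20, mt-Co1 with 19 and mt-Cytb with 16. These encode subunits of respiratory complexes I (Nd1, Nd5, Nd6), IV (Co1) and III (Cytb). Of the 162 isoforms, 62 covered at least 90% of 1 coding gene, 21 covered 2 or more and 79 covered none in full, and 89 covered a transfer RNA. Isoforms that covered 1 coding gene held 55.8% of the mitochondrial single-exon level, averaged over stages, and isoforms that covered 3 held 15.8%. mt-Nd6, the coding gene on the minus strand, held 0.0906% of that level despite its 20 isoforms.

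mt-Cytb had the highest summed level of the 13 genes, on the scale of copies per 100,000 UMIs. Its isoforms together stood at 1347 ± 419.8 copies in oocytes, 1687 ± 326.1 in zygotes, 1887 ± 659.0 at E2C, 2721 ± 1376 at L2C, 2235 ± 1066 at 4-cell, 1316 ± 940.2 at 8-cell and 681.9 ± 334.6 at 16-cell. Every mitochondrial gene but mt-Nd6 had its highest stage mean at L2C. Its most abundant isoform, PB.78709.917 (chrM:13506-15486, plus strand), was listed in every oocyte, zygote and embryo, from 87.2 copies in a 16-cell embryo to 3232 in an L2C embryo, and stages overlapped widely.

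Some mitochondrial isoforms were named by their fall from L2C to 4-cell, and no overlap between the embryos of these stages was a condition for naming them. mt-Nd1 PB.78709.151 (chrM:2213-2784, plus strand) had 9.68, 13.7, 16.2, 21.5, 51.0 and 52.2 copies at L2C and 0.690, 2.03, 2.18, 6.11 and 6.56 at 4-cell. It took its name from mt-Nd1 but starts 538 bases before that gene and covers 3.55% of it. Every 4-cell embryo was below every L2C embryo, and the difference was -3.00 on the log2(copies + 1) scale (SE 0.813, limma adjusted p = 0.0266). The isoform PB.78709.133, which covers mt-Nd1 whole, differed at this step by -0.73 (SE 0.485, limma adjusted p = 0.670). mt-Co1 PB.78709.308 (chrM:5325-6654, plus strand) had 40.8, 56.3, 65.1, 86.5, 88.2 and 186 copies at L2C and 12.9, 14.5, 29.1, 30.8 and 39.3 at 4-cell. Its difference of -1.85 (SE 0.691) met the calling limits given below for single isoforms but not an adjusted p of 0.05 (limma adjusted p = 0.169), and it was not called without 4-cell embryo 4 (-1.58) or 5 (-1.52).

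The share carried by multi-exon hosts was the one that changed past the test. It was 0.923% ± 0.118 in oocytes, with a lowest value of 0.740%, a median of 0.923% and a highest of 1.08%, and 0.897% ± 0.147 in zygotes (0.760%, 0.860% and 1.25%). The 5 E2C embryos had 1.36%, 2.84%, 1.90%, 1.28% and 1.48%, a mean of 1.77% ± 0.644. The 6 L2C embryos had 0.947%, 0.713%, 0.830%, 0.913%, 0.517% and 0.480%. All E2C embryos were above all zygotes and all L2C embryos. The rise of 0.877 percentage points from zygote to E2C had an exact two-sided permutation p = 0.000500, the smallest these group sizes allow (adjusted p = 0.0120), and the fall of 1.04 points from E2C to L2C had p = 0.00216, again the smallest possible (adjusted p = 0.0260).

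E2C embryos 2 and 3, which had the highest multi-exon host shares, were also those with high mitochondrial shares. Without both, the difference was 0.477 points from zygote to E2C (exact p = 0.00455, the smallest that 9 against 3 allow, adjusted p = 0.0714) and -0.641 points from E2C to L2C (adjusted p = 0.0714), and the stages still did not overlap. After E2C to L2C the mean went on to 0.537% ± 0.169 at 4-cell, 0.360% ± 0.0857 at 8-cell and 0.383% ± 0.155 at 16-cell, and none of these steps passed the test. The medians over cells were 0.583% at 32-cell, 0.353% in blastocysts and 0.647% in mESCs.

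The single-exon UMIs were also set against their own host genes, where the pattern held in part. Of all UMIs of the multi-exon hosts, 15.7% ± 2.04 were single-exon in oocytes, 14.7% ± 2.02 in zygotes, 25% ± 5.96 at E2C, 16.9% ± 3.60 at L2C, 13.2% ± 3.98 at 4-cell, 9.78% ± 2.29 at 8-cell and 10.1% ± 2.97 at 16-cell. All E2C embryos were above the zygotes, with a lowest value of 20.6% against a highest zygote of 19.3%. L2C overlapped E2C, since L2C embryo 1 had 23.4% while E2C embryos 1, 4 and 5 had 21.7%, 20.6% and 21.4%. This measure was not tested. In oocytes and zygotes, where runs are known, the multi-exon host share differed by -0.0750, -0.107 and 0.0817 points within runs 1, 2 and 3. Both kinds of matched transcript were higher at E2C than in zygotes on average: retained-intron matches went from 0.383% ± 0.0923 to 0.655% ± 0.209 of isoform UMIs, and protein-coding matches from 0.409% ± 0.0693 to 0.866% ± 0.328.

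The 3 hosts AU022751, E330021D16Rik and Mphosph6 carried much of this share. Their single-exon isoforms together took 0.360% ± 0.0801 of isoform UMIs in zygotes, 0.858% ± 0.354 at E2C and 0.0267% ± 0.00730 at L2C. Without them, a choice made after seeing the data, the rise from zygote to E2C was 0.379 points and still passed (exact p = 0.00150, adjusted p = 0.0360). The stages then overlapped, as E2C embryos 1 and 4 had 0.693% and 0.660% and zygote 7 had 0.720%. E2C embryos 2 and 3 had the highest values of that stage, 1.37% and 1.05%. The fall from E2C to L2C became 0.209 points and no longer passed (exact p = 0.199, adjusted p = 0.390), so that step rests on these 3 hosts.

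AU022751 is a gene on the X chromosome whose product is not described in the files, and its leading member PB.78789.4 (chrX:6081219-6083422, minus strand, 2204 bases) covered the whole of an annotated 1-exon protein-coding transcript. Its level was 146.4 copies per 100,000 in oocytes (92.3 to 223), 118.2 in zygotes (76.9 to 230), and 241, 284, 323, 390 and 483 in the 5 E2C embryos. In the 6 L2C embryos it was 0.965, 3.28, 7.99, 7.99, 8.08 and 10.2. The E2C embryos were above every other oocyte, zygote or embryo, and the L2C embryos were below every E2C embryo. On the log2(copies + 1) scale the level rose by 1.55 (SE 0.361, limma adjusted p = 0.00272) from zygote to E2C, and fell by 5.68 (SE 0.478, limma adjusted p = 1.13e-14) to L2C. The gene as a whole behaved alike, because 90.9% ± 4.80 of its UMIs were single-exon in oocytes, 94.1% ± 4.64 at E2C and 86.1% ± 18.4 at L2C.

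E330021D16Rik (PB.64532.38, chr6:136400311-136401888, minus strand) overlapped the whole of a 1-exon protein-coding transcript and ran 404 bases past its annotated end. The 5 E2C embryos had 97.4, 131, 155, 184 and 270 copies, zygotes 45.6 to 138, and the L2C embryos 1.93, 2.48, 4.70, 4.84, 5.84 and 32.3. It fell by 4.83 on the log2 scale from E2C to L2C (SE 0.496, limma adjusted p = 9.59e-12). A second isoform of the gene, PB.64532.41, fell by 5.35 (SE 0.508, limma adjusted p = 7.16e-13). Single-exon isoforms made 37.2% ± 7.03 of the gene's UMIs in oocytes, 32.9% ± 6.36 in zygotes and 46.7% ± 15.3 at E2C.

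Mphosph6, an RNA exosome-associated protein, gave a member (PB.73739.27, chr8:117791643-117792813, minus strand) that lacked the first 404 bases of its matched transcript. It had 84.2, 87.7, 138, 197 and 277 copies in E2C embryos, 36.3 to 119 in zygotes and 3.84 to 9.61 in L2C embryos, so that E2C overlapped zygotes and not L2C. The fall to L2C was 4.30 on the log2 scale (SE 0.452, limma adjusted p = 1.80e-11). The rise from zygote to E2C, 1.11 (SE 0.341, limma adjusted p = 0.0345), was no longer called when E2C embryo 2 or 3 was left out, and was 0.66 without both. Unlike AU022751, this gene was mostly spliced: single-exon isoforms made 6.61% ± 2.19 of its UMIs in zygotes, 14.7% ± 6.70 at E2C and 6.25% ± 3.49 at L2C.

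Over the 262 multi-exon hosts with isoforms of both kinds, the median gene had 25.5% of its level in single-exon isoforms (quartiles 8.42% and 58.7%), and 82 genes were above 50%. Rnf4, a SUMO-targeted ubiquitin ligase with 10 single-exon isoforms, had 100.0% of its level in them in oocytes, zygotes and E2C embryos. Ipo8, an importin, had 90.0% ± 5.36 in oocytes, and Ctnnb1, which encodes beta-catenin, had 71.8% ± 8.74. Hnrnpf, an RNA-binding protein whose coding region lies in 1 exon, went from 74.8% ± 9.07 in oocytes and 88.9% ± 7.72 at E2C to 49.3% ± 29.1 at 16-cell, with a wide spread among embryos.

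Outside the mitochondrial genome, the hosts with the most single-exon isoforms were the intronless Gm42418 and Kbtbd7 with 13 each and the multi-exon hosts Gpr137c and Rnf4 with 10 each.

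The share of intronless hosts moved little. It was 1.13% ± 0.0959 in oocytes, 1.28% ± 0.441 in zygotes, 1.14% ± 0.194 at E2C, 1.31% ± 0.245 at L2C, 1.37% ± 0.143 at 4-cell, 1.19% ± 0.219 at 8-cell and 1.30% ± 0.124 at 16-cell, and the medians of 32-cell, blastocyst and mESC cells were 1.43%, 1.35% and 1.21%. No step passed the test. The wide zygote spread came with 1 host, Gm42418, a lincRNA annotated over ribosomal RNA sequence. All its isoforms together stood at 126.8 ± 113.8 copies in oocytes and 371.2 ± 402.0 in zygotes, from 23.4 to 980.0, and zygotes of run 1 had 0.742% of their UMIs in it, against 0.107% in run 2 and 0.0222% in run 3. Without Gm42418 the difference from oocyte to zygote was -0.0891 points in place of 0.142. Within runs 1, 2 and 3 the intronless host share of zygotes differed from that of oocytes by 0.498, -0.243 and -0.0772 points.

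The mean length of nuclear single-exon molecules, weighted by UMIs, became shorter between E2C and L2C. E2C embryos had 1548, 1354, 1361, 1460 and 1365 bases, and L2C embryos 1252, 1197, 1258, 1266, 1352 and 1229 bases, without overlap. The difference was -159 bases (exact two-sided permutation p = 0.00433, adjusted p = 0.0346), and -43.0 bases without the test being passed when each detected isoform counted once. Without E2C embryos 2 and 3 it was -199 bases and did not pass (exact p = 0.0119, adjusted p = 0.0714). AU022751 PB.78789.4, an isoform of 2204 bases, had a mean of 344.4 copies at E2C and 6.42 at L2C. The length without this isoform was not computed, so its part in the difference was not tested. Spliced isoforms also had a lower mean at L2C, 1247 ± 56.0 bases, than at E2C, 1337 ± 88.2. Oocytes had 1420 ± 76.9 bases, zygotes 1342 ± 64.6, 4-cell embryos 1302 ± 64.1, 8-cell embryos 1181 ± 31.1 and 16-cell embryos 1154 ± 121.

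For single isoforms, limma was fitted to log2(copies per 100,000 + 1) of 29409 isoforms that had at least 1 copy in at least 4 embryos. Of the 1360 members, 792 passed that filter and 568 did not. An isoform was called at a log2 change over 1 and an unadjusted p under 0.01. From oocyte to zygote 16 members were higher and 4 lower, where 1.16% and 0.32% of all isoforms tested were called, and the members' own shares were 2.02% and 0.505%. The direction was the same in all 3 runs for 11 of the 16 and for 1 of the 4. From zygote to E2C 41 were higher (background 2.23%) and 13 lower (background 2.94%). From E2C to L2C 126 were higher (background 12.9%) and 110 lower (background 13.1%). The later steps gave 12 higher and 40 lower from L2C to 4-cell (backgrounds 2.61% and 1.68%), 11 higher and 63 lower from 4-cell to 8-cell (backgrounds 3.63% and 4.3%), and 8 higher and 3 lower from 8-cell to 16-cell (backgrounds 1.05% and 0.921%). From L2C to 4-cell, leaving out 4-cell embryo 4 gave 7 higher and 21 lower, and leaving out 4-cell embryo 5 gave 17 lower. From 8-cell to 16-cell, the higher members numbered 18 without 8-cell embryo 1, and 5, 19 and 26 without 16-cell embryos 1, 3 and 4. The lower members numbered 0 without 8-cell embryo 1 or 2 (limma, as in the other counts), 10 and 21 without 8-cell embryos 3 and 4, and 6, 7 and 9 without 16-cell embryos 1, 3 and 4.

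The shares called in each class are given beside those over all isoforms tested, and differences between classes were not tested. Of the 329 multi-exon host isoforms tested, 29 (8.81%) were higher at E2C than in zygotes, against 2.23% of all isoforms, and 57 (17.3%) were lower at L2C than at E2C, near the 13.1% of all isoforms. Of the 318 intronless host isoforms tested, 75 (23.6%) were higher and 53 (16.7%) lower at L2C than at E2C, where the shares over all isoforms were 12.9% and 13.1%, and 49 (15.4%) were lower at 8-cell than at 4-cell, against 4.3%. Of the 138 mitochondrial isoforms tested, 11 (7.97%) were higher at L2C than at E2C, below the 12.9% of all isoforms. At 4-cell 19 (13.8%) were lower than at L2C, against 1.68%, and of these 19 only 3 passed an adjusted p of 0.05. The tested intronless host isoforms had a median level of 0.815 copies and the multi-exon host isoforms 0.584, against 0.571 over all tested isoforms and 8.91 for mitochondrial ones, and low levels limit what the log2 scale can call. Without E2C embryos 2 and 3, 25 members were higher and 19 lower from zygote to E2C.

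**Figure D4:**
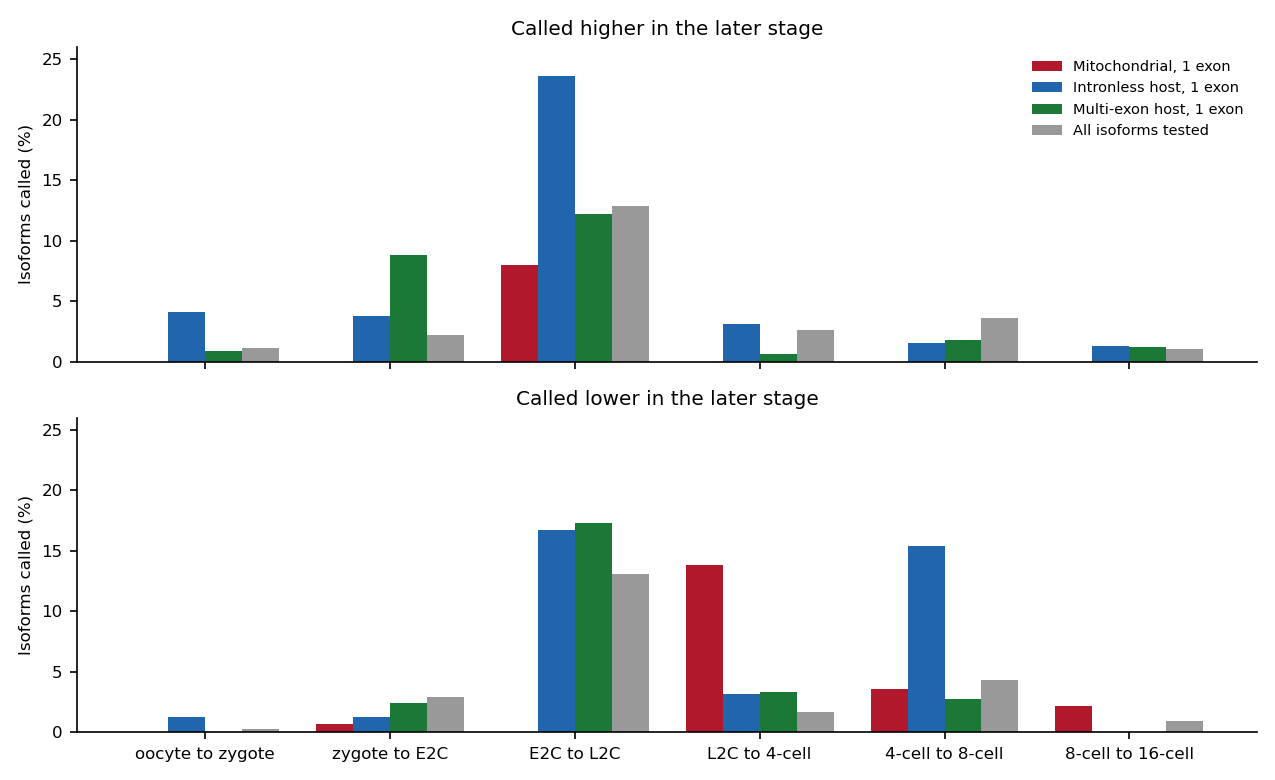
Percent of tested isoforms called higher (top) or lower (bottom) in the later stage of each adjacent pair, for the 3 classes of single-exon isoforms and, in grey, all 29409 tested isoforms. The highest bars are intronless hosts higher at L2C (23.6%), and multi-exon hosts stand above the grey bar at zygote to E2C (8.81% against 2.23%).

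Replication-dependent histones were the largest group called from oocyte to zygote. These genes supply the core and linker histones of S phase, and their messengers classically end in a stem-loop and not in a poly(A) tail. They hosted 54 single-exon isoforms, 20 of which were tested, and 7 were higher in zygotes, where 1.16% of all isoforms were, and none lower (median log2 change of the 20, 0.64; of all isoforms tested, 0). The 7 came from Hist1h1a, Hist4h4, Hist2h3c1, Hist1h4c, Hist2h2aa2, Hist1h2bk and Hist2h2aa1, and each had the same direction in all 3 runs. Hist2h2aa1 (PB.48429.1, chr3:96245492-96246115) had 0 copies in 8 of the 10 oocytes and at most 1.83, and zygotes had 0 to 6.25 with a median of 3.07. The groups overlapped in 1 zygote at 0. It rose by 1.75 (SE 0.222, limma adjusted p = 3.28e-07).

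The 54 histone isoforms summed to 10.2 ± 3.42 copies in oocytes (6.00 to 18.3) and 30.5 ± 11.7 in zygotes (8.78 to 48.4). Within runs the means were 8.48 and 34.7 copies in run 1, 18.3 and 38.3 in run 2, where 1 oocyte and 2 zygotes were sequenced, and 10.4 and 19.6 in run 3. The sum was 38.3 ± 9.65 at E2C and 5.58 ± 2.28 at L2C, where 5 histone isoforms were called lower and 1 higher. Hist2h2aa1 had 3.34 to 8.82 copies in the E2C embryos and was listed at 0 in all 6 L2C embryos. By 16-cell the sum was 43.3 ± 27.1.

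Maternal effect genes, which act in the egg and the first divisions, hosted 8 members, 6 of them tested. Mos is the kinase that holds the egg at metaphase II, and its intronless gene gave PB.50099.4 (chr4:3870620-3872071, minus strand, 97.7% of the annotated transcript). Oocytes had 43.9 to 184 copies with a median of 105.1, and zygotes 4.58 to 78.0 with a median of 15.8, with some overlap. It fell by 2.27 from oocyte to zygote (SE 0.362, limma adjusted p = 2.02e-05), in all 3 runs, and by 2.47 more from zygote to E2C (SE 0.519, limma adjusted p = 0.000774). The other 2 tested isoforms of the list called at these steps were a shorter Mos isoform and Zar1 PB.57286.2. The shorter Mos isoform was lower in zygotes (-1.78, SE 0.341), but not in run 3, where oocytes had a mean of 9.73 copies and zygotes 11.8. Zar1 PB.57286.2 was lower at E2C (-1.20, limma adjusted p = 0.0522) and not called without E2C embryo 3. From E2C to L2C, 1 isoform of the list was called lower.

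Lamtor3, a subunit of the lysosomal Ragulator complex, hosted a retained-intron isoform that fell from zygote to E2C. PB.49630.120 (chr3:137927945-137928765, plus strand) started 1770 bases into its matched transcript. Zygotes had 6.25 to 18.8 copies and E2C embryos 0, 0.780, 1.75, 4.19 and 4.87. The groups did not overlap, which was a condition for naming this isoform. The fall was 2.31 on the log2 scale (SE 0.364, limma adjusted p = 6.31e-06). The whole gene was also lower, with all its isoforms at 87.9 ± 22.7 copies in zygotes and 12.9 ± 2.65 at E2C, and the single-exon part was 15% and 17.5% of it.

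Thap11, a zinc-finger transcription factor with an intronless gene, rose in 2 successive steps. PB.73115.7 (chr8:105854842-105856996, plus strand) covered its whole annotated transcript. It was at 0 in 6 of 10 oocytes and at most at 2.44 copies, and at 0.585 to 6.72 in zygotes. The E2C embryos had 7.42, 8.21, 14.2, 15.1 and 15.9, above all zygotes, as the rule for naming this isoform required. The increases were 1.80 (SE 0.275, limma adjusted p = 8.97e-06) and 1.43 (SE 0.394, limma adjusted p = 0.0157). After 15 to 58.2 copies at L2C it fell by 2.12 from 4-cell to 8-cell (SE 0.525, limma adjusted p = 0.00498), to 0 to 4.73 copies.

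The large rises from E2C to L2C named here came from intronless genes and 1 multi-exon host, a histone variant gene. All members called higher at this step were 75 of intronless hosts, 40 of multi-exon hosts and 11 mitochondrial ones. H2afj, an H2A variant, had 0, 0, 0.834, 1.62 and 3.19 copies of PB.64548.3 (chr6:136807696-136808850, plus strand) at E2C and 44.3, 47.4, 47.8, 48.2, 48.5 and 51.1 at L2C. The 6 L2C embryos were close to each other and far above all earlier ones. The rise was 4.73 (SE 0.484, limma adjusted p = 7.98e-12), and the isoform ended 1224 bases before its annotated end. Gm10184 rose by 4.59 (SE 0.521, limma adjusted p = 1.71e-10), from 0 to 4.19 copies to 24.2 to 74.2. For H2afj and Gm10184, no overlap between these stages was a condition of naming, and 16 isoforms met that rule for a rise. Gm10282 PB.72098.6 rose by 3.75 (SE 0.507, limma adjusted p = 1.85e-08), and Riox1 PB.17480.4, a ribosomal oxygenase, rose by 3.60 (SE 0.396, limma adjusted p = 7.10e-11) from 0 copies in all 5 E2C embryos.

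Riox1 and Imp3, whose means were higher at L2C than at E2C, fell again by 8-cell. Riox1 had 6.16, 13.1, 17.1, 17.6 and 23.3 copies in 4-cell embryos and 1.23, 2.13, 2.64 and 3.58 in 8-cell embryos, a fall of 2.19 (SE 0.398, limma adjusted p = 0.000116). Imp3, a protein of the U3 small nucleolar ribonucleoprotein, had 26.7 to 38.8 copies of PB.75982.1 at 4-cell and 5.81 to 9.05 at 8-cell, a fall of 1.96 (SE 0.445, limma adjusted p = 0.00208). Neither pair of groups overlapped, which was a condition for naming them among the 6 isoforms that met the rule for a fall at this step.

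Sfn and Rpl10-ps3 were among the most abundant nuclear members. Sfn, the 14-3-3 sigma adaptor, has an intronless gene, and its PB.54014.10 (chr4:133600496-133601934, minus strand) had 4.84 to 29.2 copies at L2C, 19.4, 71.0, 89.0, 148 and 178 at 4-cell, and 136, 183, 196 and 506 at 8-cell. The rise from L2C to 4-cell was 2.97 (SE 0.600, limma adjusted p = 0.00193), with 1 4-cell embryo inside the L2C range. The medians over cells were 140.7 copies at 32-cell and 105.8 in blastocysts and 29.1 in mESCs.

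Ribosomal protein genes, most of them retrocopies, hosted 14 members, 8 of them tested, and 5 rose from E2C to L2C and 3 from 4-cell to 8-cell, with none lower at any step. The shares of all isoforms higher at these steps were 12.9% and 3.63%. Rpl10-ps3 PB.75725.1 (chr9:50344196-50345135, minus strand) rose by 1.62 from E2C to L2C (SE 0.490, limma adjusted p = 0.00759), from 15 to 23.2 copies to 24.2 to 114, without overlap. It went on to 266.7 ± 139.5 copies at 8-cell and 340.4 ± 151.8 at 16-cell. Rpl9-ps6 PB.38878.1 had 0 to 13.3 copies at 4-cell and 17.3 to 30.1 at 8-cell, a rise of 1.29 that met the calling limits (p from limma 0.00999) and not an adjusted p of 0.05 (limma adjusted p = 0.0975), and that was not called without 4-cell embryo 1, 2 or 5 or 8-cell embryo 1, 3 or 4 (from 1.004 to 1.36). These copies closely resemble the messengers of intron-containing genes, so reads of Rpl10, Rpl9 and Sap18 could have been placed on them, and the levels of Rpl10-ps3, Rpl9-ps6 and Sap18b are uncertain for that reason. Rpl10 itself went from 4.23 ± 2.24 copies at E2C to 22.4 ± 10.1 at L2C, and Rpl9 from 7.17 ± 2.10 to 82.0 ± 26.1.

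Other abundant members were Sf3b5, Sap18b and Pcbp1. Sf3b5, a subunit of the spliceosomal SF3B complex, fell by 0.84 from oocyte to zygote (SE 0.208, limma adjusted p = 0.00850), under the calling limit, and rose by 2.07 from E2C to L2C (SE 0.394, limma adjusted p = 2.68e-05). Sap18b PB.72906.16, a copy of a histone deacetylase complex subunit, fell by 1.88 at that step (SE 0.397, limma adjusted p = 0.000139), from 64.1 to 91.3 copies to 13.8 to 27.5. Pcbp1, an intronless poly(C)-binding protein, differed there by -1.11 (SE 0.442, limma adjusted p = 0.0448), which missed the calling limit on p.

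**Figure D5:**
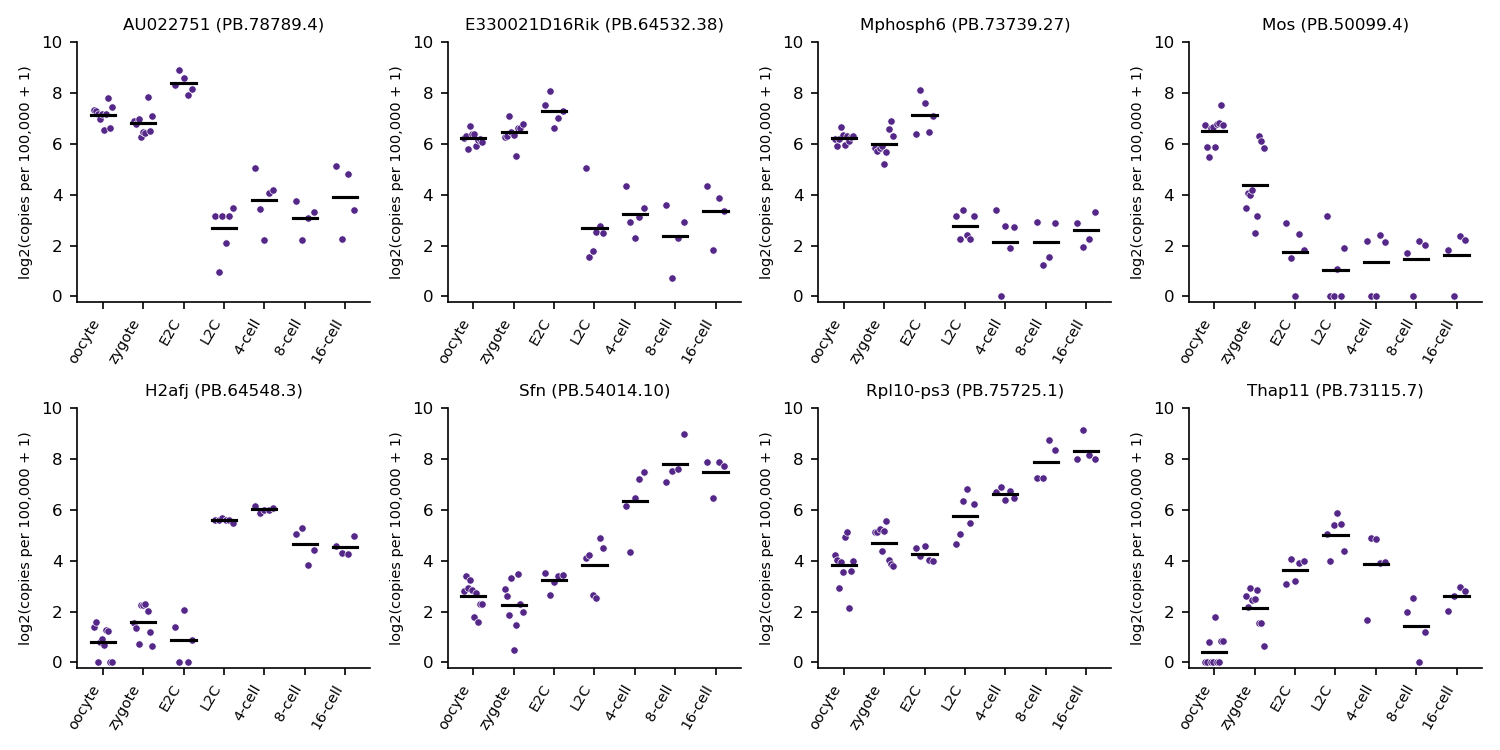
Levels of 8 single-exon isoforms, as log2(copies per 100,000 UMIs + 1), in each oocyte, zygote or embryo (points) with the stage mean (bars). AU022751, E330021D16Rik and Mphosph6 are highest at E2C and low from L2C on, Mos falls from the oocyte, H2afj and Rpl10-ps3 are higher from L2C on than at E2C, and Sfn is higher from 4-cell on.

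Among the other lists, 3 of 9 tested isoforms of intronless transcription factors and immediate early genes rose and 1 fell from E2C to L2C, where 12.9% of all isoforms were higher and 13.1% lower. None of the 6 tested isoforms of retrogenes and other intronless housekeeping genes was called before L2C, 1 rose and 1 fell from E2C to L2C, near the shares of all isoforms, and 1 fell from L2C to 4-cell. Of the 6 tested isoforms of nuclear long noncoding RNAs, a Malat1 isoform was higher in zygotes (1.02, SE 0.272, limma adjusted p = 0.0155), was called lower at E2C (-1.11, limma adjusted p = 0.0810) though not when any 1 E2C embryo was left out, and 2 other isoforms of the list rose at L2C. The only tested isoform of the 2-cell Usp17l and Tdpoz genes, Tdpoz5, fell by 1.61 from 4-cell to 8-cell. The 1 tested heat shock isoform was not called at any step, and both Sox2 isoforms, the members of the pluripotency list, were under the filter.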

How the data were processed

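Single cells of mouse preimplantation stages were measured by long-read cDNA sequencing in 3 runs. A further run, on intact and split oocytes, was not used here. Per the study's methods, consensus reads were made with SMRT-Link, and scISA-Tools found barcodes and UMIs. Alignment to mm10 used minimap2, gene assignment gffcompare, isoform collapse cDNA_Cupcake, and classification and filtering SQANTI3. Isoforms present in under 5 cells had been dropped by the authors. The authors deposited copies per 100,000 UMIs of a cell, which is CPM divided by 10. In the tables used here the same deposited value is recorded as CPM for 8-, 16- and 32-cell stages and as a score for the others. Every value above 0 equalled a whole number of UMIs (100% of values, tolerance 0.1 UMI), so UMI counts could be recovered. They ran from 3385 to 248254 isoform UMIs per cell (median 29552), and shallow cells see rare isoforms less often. Priming on poly(A) and the filter on rare isoforms limit what can be measured of RNAs without a tail and of isoforms in few cells.

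Host classes and 3′ ends came from GENCODE M21 (GRCm38), of which the annotation and transcripts were used. Each cell was thinned to 3000 isoform UMIs (5 draws averaged), and cells were averaged per oocyte, zygote or embryo. Adjacent stages were compared on 4 measures by exact two-sided permutation tests over embryos, with Benjamini-Hochberg adjustment over all 24 tests. Single isoforms were tested with limma 3.58.1 (trend, array weights) on log2(copies + 1), all 7 stages in 1 fit, for isoforms reaching 1 copy per 100,000 in 4 or more embryos, with adjustment over all 29409. This scale understates changes of isoforms with few copies. Alternatives were other depths, pseudocounts, filters and weights, leaving out each embryo of stages with 5 or fewer, and edgeR 4.0.16 and DESeq2 1.42.0 on recovered UMIs. Chosen after seeing the data were nuclear UMIs as denominator and leaving out AU022751, E330021D16Rik and Mphosph6, Gm42418, or E2C embryos 2 and 3. The limma fit was tested on simulated UMIs, and the permutation test was only checked on small fixed sets of values with known answers.

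The members and gene lists were chosen with earlier results of these data known. Isoforms were named by rule: the 10 nuclear ones with the highest mean over stages, up to 2 with the largest rise and fall at each step among those called with 10 or more copies and no overlap between stages, the 5 hosts with the most members, and up to 4 members of highest mean per list. For isoforms named by a rise or fall, the call and the lack of overlap were set by this rule and are descriptions. Ctnnb1, Hnrnpf, Ipo8, Rnf4, Gpr137c, Kbtbd7, Gm42418, the 7 histones called in zygotes, and Rpl10 and Rpl9 were named after their values were seen. No 2 cell columns were identical. The labels name sequencing runs only, so p-values measure the spread between the oocytes, zygotes and embryos named in the columns.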

Additional observations from a re-analysis of the deposited data

Results flagged for a closer look

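Dixon's criterion was applied to 125 groups of 4 to 10 embryos, which covered the shares, the length and the named isoforms at stages where their mean was at least 10 copies per 100,000 UMIs. It set 1 embryo apart in 14 groups, where chance alone gives about 5% of groups. L2C embryo 1, measured from 1 cell, had a single-exon share of 28.9% with the other L2C embryos between 14.2% and 19.1%, and a mitochondrial share of 26.9% against 12.4% to 16.9%. Its level of mt-Co1 PB.78709.308, 186 copies, also stood above the 40.8 to 88.2 of the others. Among 16-cell embryos, embryo 3 had a mitochondrial share of 4.88% with the others between 3.68% and 3.74%, and embryo 2 had 566.9 copies of Rpl10-ps3 PB.75725.1 with the others between 254 and 286. Zygote 7 had the highest multi-exon host share, 1.25% against 0.760% to 1.0%, together with 230.3 copies of AU022751 PB.78789.4 against 76.9 to 138. The remaining cases were single isoforms. Sfn PB.54014.10 stood at 506 copies in 8-cell embryo 4 (136 to 196 in the others), and Mphosph6 PB.73739.27 at 102 in oocyte 4 (59.5 to 81.6). Sap18b PB.72906.16 was at 0 in 4-cell embryo 2 (13.3 to 17.2), and Imp3 PB.75982.1 at 22.2 in zygote 3 (5.36 to 11.8). In E2C embryo 2, E330021D16Rik PB.64532.41 had 177 copies (34.9 to 66.0), and in E2C embryo 3, mt-Nd1 PB.78709.151 had 110 (2.34 to 22.6). In oocyte 6, mt-Nd1 PB.78709.151 had 36.7 copies. Whether depth, cell number or run takes part in these values was not tested.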

How the results depend on the processing

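Depth limits the isoforms of few copies: at 3000 UMIs per cell, 1 UMI is 0.0333% of a cell. No paired analysis was possible because an embryo number names an embryo of its own stage only. All differences below are in percentage points of isoform UMIs unless bases are named. With 10000 UMIs per cell, the multi-exon host difference from 8-cell to 16-cell was -0.0116 and the intronless one from L2C to 4-cell -0.00737; the latter was also negative without thinning (-0.0232), with UMIs summed over cells (-0.0246) and over nuclear UMIs (-0.0429). Without mitochondrial isoforms the total share changed by -0.777 from E2C to L2C and by 0.112 from 8-cell to 16-cell. Without AU022751, E330021D16Rik and Mphosph6, the multi-exon host difference was -0.209 from E2C to L2C and -0.00123 from 8-cell to 16-cell. Without Gm42418, the intronless difference was -0.0891 from oocyte to zygote and 0.106 from zygote to E2C. Without E2C embryos 2 and 3, the total share differed by -1.03 from zygote to E2C, the multi-exon host share by 0.477 there and by -0.641 to L2C, and the length by -199 bases; unweighted, the length differed by -43.0 bases. Leaving out 1 embryo of a stage with 5 or fewer gave -0.0339 to 0.0710 for the multi-exon host share and -63.2 to 29.9 bases for the length from 8-cell to 16-cell, and left every other share and length difference with its sign. The tests past the threshold for the multi-exon host share and length kept their side whichever embryo was left out, with ranges of 0.610 to 0.9996, -1.16 to -0.773 and -175 to -126 bases. Counts of called members moved more, given as higher and lower. A pseudocount of 0.5 gave 34 and 12 from oocyte to zygote and 13 and 5 from 8-cell to 16-cell, where 8 and 3 were called. For that last step 5 were higher with no filter, 4 without array weights and 4 at an adjusted p under 0.05, while 5 were lower with the filter at 8 embryos, and 0 at an adjusted p under 0.05 and over nuclear UMIs. An adjusted p under 0.05 gave 13 lower from L2C to 4-cell. Without E2C embryos 2 and 3, 25 were higher at E2C. edgeR, which tested 4285 isoforms and so fewer members, gave 6 and 2, then 16 higher at E2C, 36 and 51 at L2C, 7 and 13 at 4-cell, 4 and 19 at 8-cell, and 1 and 0 at 16-cell. DESeq2 gave 3 higher in zygotes, 17 and 6 at E2C, 29 and 57 at L2C, 6 and 17 at 4-cell, 2 and 30 at 8-cell, and 0 higher at 16-cell. Of the 236 members called from E2C to L2C, 91 were tested by edgeR and 83 of these were called, all 91 with the same sign. At other steps edgeR called 6 of the 8 it tested from oocyte to zygote and 16 of 19 from zygote to E2C. It called 16 of 30 from L2C to 4-cell, 19 of 27 from 4-cell to 8-cell and 0 of 3 from 8-cell to 16-cell. Leaving out 1 embryo gave 7 to 14 higher and 17 to 53 lower from L2C to 4-cell, and 5 to 26 higher and 0 to 21 lower from 8-cell to 16-cell. For the named isoforms and the stage means, 720 values were counted as the same as under the main settings, 69 as weaker and 0 as changed in sign. These counts do not separate the isoforms from the stage means, so they do not give the number of isoform calls that were kept. The cause of the weaker values was not tested.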
